A study of Mus musculus with 4 samples.

Results

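The mitosis and spindle genes are 40 genes that act in G2 and mitosis: regulators of entry, kinetochore and spindle proteins, and proteins that divide the cell. They were chosen by name, with earlier results of these data known. Each probe set whose annotation gave exactly 1 of these names was taken. Of the 40 genes, 39 had such a probe set, out of 18193 genes on the array, with 85 probe sets in all. Of these, 59 probe sets were bright enough to be tested, and each of the 39 genes kept at least 1. Ccnb1 (cyclin B1) had no probe set under its name alone and is not analysed here.

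The 4 Affymetrix Mouse Genome 430 2.0 arrays compared mammary tumors of St6gal1-/- mice with tumors of wild-type littermates. All animals were female C57BL/6 mice aged 110 days that carried PyV-mT, the polyoma virus middle T oncogene, and all tumors were taken 14 days after onset. Each array held RNA pooled from 3 tumors of 3 animals, and each genotype had 2 pools. The pools were compared in pairs: set 1 holds 1 null and 1 wild-type pool, and set 2 holds the remaining pair. Values below are therefore given in the order set 1, set 2. St6gal1 encodes the sialyltransferase that adds alpha2-6-linked sialic acid to N-glycans. The promoter that drives the transgene and the part of St6gal1 that the null allele lacks are not given in the sources used here.

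Dividing cells make most of these transcripts in a wave that begins late in S phase and ends with mitosis. The wave is driven largely through 2 promoter elements: CCAAT boxes, which bind NF-Y, and the CHR element, which binds the MuvB core of the DREAM and B-Myb complexes. Cyclin-dependent kinase 1 with its cyclins starts mitosis, the kinetochores attach chromosomes to spindle microtubules under the spindle checkpoint, and the anaphase-promoting complex (APC/C) then destroys cyclins and securin so that chromatids part. In a tumor, the summed level of such transcripts is widely read as a mark of how many cells are dividing.

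Values are MAS5 intensities, 1 signal per probe set on a linear scale, and ratios are null over wild type on the log2(intensity + 44) scale. The test was limma with the set as a block, with p-values adjusted by Benjamini-Hochberg across the 22519 probe sets that entered it and a threshold of 0.05, and each ± beside a log2 ratio is limma's standard error with n = 2 pools per genotype. With 1 residual and 13.5 prior degrees of freedom, that error follows mostly the trend over intensity. Each gene is given by its leading probe set, the brightest one tested. St6gal1 itself had a tested probe set with 2337 and 3642 in the null pools, against 2330.1 and 2796 in the wild-type pools (log2 ratio 0.19 ± 0.16, limma adjusted p = 0.563) and a dim one with 492 and 475 in the null pools, against 486 and 548 in the wild-type pools. Neither showed a loss, so the genotypes rest on the labels. The dim values lay under 565, the highest intensity among 13 probe sets of Y-linked genes, which in female animals marks an unspecific level. The 3'/5' intensity ratio of Gapdh, a sign of RNA quality, was 0.873 and 2.13 in the null pools, against 0.869 and 1.57 in the wild-type pools. That of beta-actin was 1.53 and 2.12 in the null pools, against 1.63 and 1.96 in the wild-type pools. Epithelial markers were bright on every array, Krt8 with 116412 and 150715 in the null pools, against 101213 and 114827 in the wild-type pools and Epcam with 45381 and 21835 in the null pools, against 52347 and 24274 in the wild-type pools. Ptprc, the common leukocyte antigen, had 9329.6 and 9078 in the null pools, against 6554 and 8322 in the wild-type pools. In pooled tissue, more cells of a type and more RNA per cell cannot be told apart.

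Mitosis and spindle genes were higher in the null tumors: 11 of the 39 genes rose and 0 fell. Over all 11512 genes tested by their leading probe sets, 5.17% rose and 3.54% fell, so the 11 genes (28.2%) stand against 5.17%. Because the genes were chosen with earlier results of these data known, this contrast is a description. The 11 were Ccna2, Ccnb2, Cdk1, Melk, Mad2l1, Cdc20, Ube2c, Birc5, Anln, Mki67 and Top2a, with ratios between 0.52 and 0.79, or 1.43-fold to 1.73-fold. The median log2 ratio of the 39 genes was 0.45, against -0.01 over all genes, and was 0.42 in set 1 and 0.47 in set 2. In both sets 32 of the 39 were higher in the null pool and 0 were lower in both, where 31.6% of all genes were higher in both and 33.5% lower in both. For 27 genes both null arrays lay above both wild-type arrays, as they did for 17.6% of all genes. Kif20a, counted in the 32 and in the 27, entered the test only through its null arrays.

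The calls rest on the set term and on the intensity trend of limma. Without the set term limma called 0 of the 39 genes, with 13 higher at an unadjusted p under 0.05, and without the trend it called 0, with 20 higher at an unadjusted p under 0.05. On simulated arrays of this design, unchanged probe sets made up a larger share of the calls than the threshold allows, and 1.5-fold changes were mostly missed. The simulated arrays held far fewer changed probe sets than were called here, with independent errors. Both shares depend on these settings and may differ for the calls here. A permutation of 2 against 2 arrays cannot give an exact two-sided p below 0.333.

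**Figure D1:**
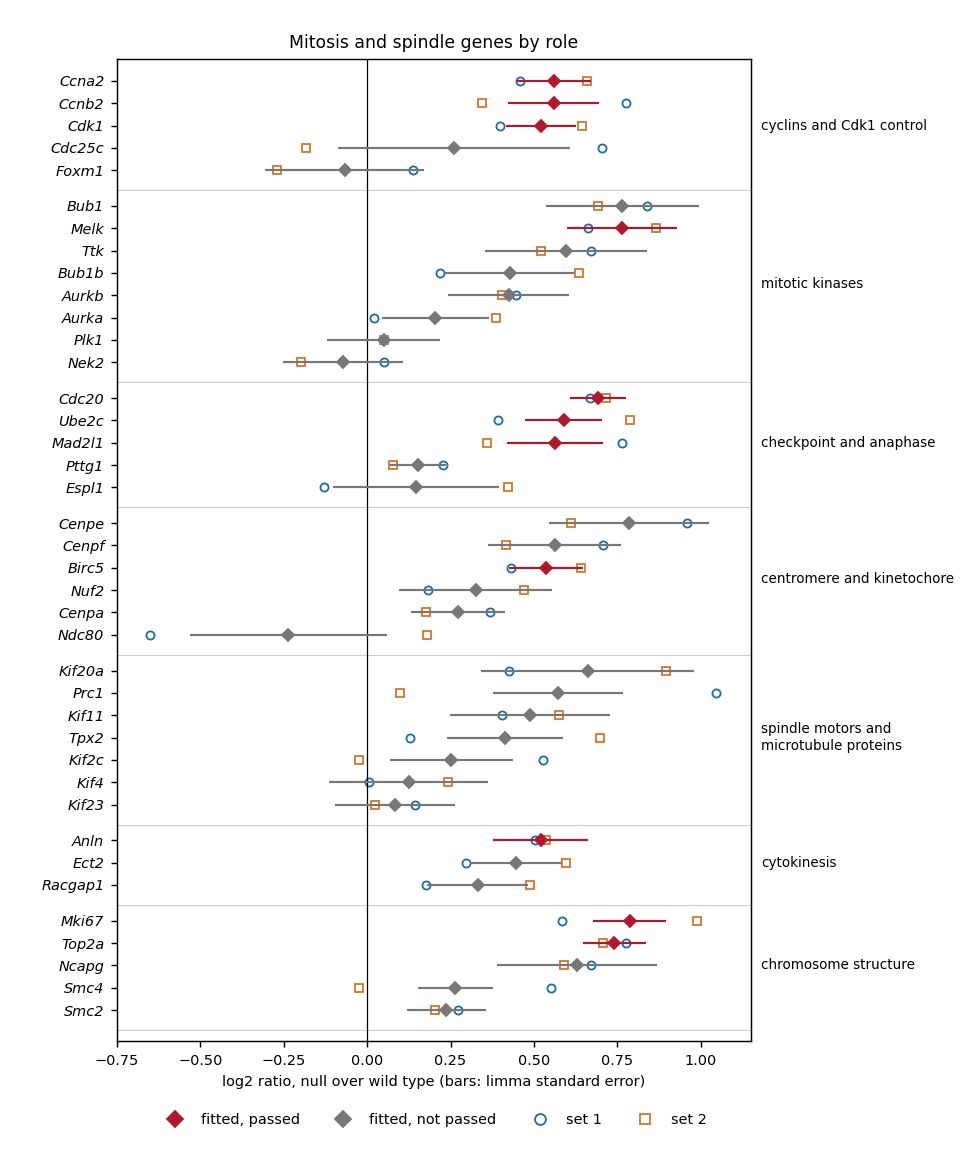
The log2 ratio of null over wild type (horizontal axis) is drawn for the leading probe set of each of the 39 genes, grouped by role, with limma's standard error as bars and the ratios of sets 1 and 2 as open circles and squares. The 11 red diamonds passed the test; 7 genes have the 2 sets on different sides of 0.

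The cyclins and Cdk1 moved together, while the regulators around them did not pass. Of 5 genes in the group 3 rose, against 5.17% of all genes. Ccna2, cyclin A2, which acts with Cdk2 in S phase and with Cdk1 in early mitosis, had 6388 and 7488 in the null pools, against 4633 and 4724 in the wild-type pools (log2 ratio 0.56 ± 0.11, limma adjusted p = 0.00546). Ccnb2, cyclin B2, a partner of Cdk1, had 4833 and 5159.9 in the null pools, against 2807 and 4055 in the wild-type pools (log2 ratio 0.56 ± 0.14, adjusted p = 0.0203). Cdk1, the kinase that starts mitosis, had 7463 and 9139 in the null pools, against 5655 and 5830.4 in the wild-type pools (log2 ratio 0.52 ± 0.11, adjusted p = 0.00657). For each of the 3 genes the lower null array lay above the higher wild-type array, and the 2 wild-type arrays of Ccna2 and of Cdk1 were close to each other. Cdc25c, the phosphatase that activates Cdk1, had 861 and 529.8 in the null pools, against 511 and 608 in the wild-type pools, so the sets disagreed in direction, at 0.70 in set 1 and -0.18 in set 2. Its values other than that of the null array of set 1 lay near the unspecific level of 565. Foxm1, a transcription factor of G2 and M genes, had 999.9 and 1490.2 in the null pools, against 905 and 1808 in the wild-type pools, with overlapping groups and a log2 ratio of -0.07 ± 0.24 (adjusted p = 0.918). Foxm1 differed between the sets instead, with a set 2 over set 1 log2 ratio of 0.76 (adjusted p = 0.0317). Its 3 other probe sets were too dim to test.

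Promoters of these genes were read for the CHR letters TTTGAA and the CCAAT box letters CCAAT, on both strands, in RefSeq windows of GRCm38.p6 that run from 250 bases before to 50 after a gene's start. Of the 40 genes 33 matched a window by symbol, 1 window per gene. The CHR letters occurred in 24 of the 33 windows (72.7%), against 18.1% of the windows of all 27025 genes, and a CCAAT box in 25 (75.8%), against 37.9%. Both motifs together occurred in 21 windows (63.6%), against 7.12%. The longer tandem of GCGG, any 4 bases and the CHR letters, which spells a CDE element before the CHR, occurred in 2 windows, of Cdk1 and Cenpf, against 0.0851% of all windows. Among genes that rose 7 of 10 windows held the CHR letters (70.0%), and among genes tested that did not pass 17 of 22 did (77.3%). In a list of S phase genes 1 of 18 windows held the CHR letters (5.56%), while 12 (66.7%) held a CCAAT box. Matches of such short letters are descriptions, and binding was not measured here.

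The windows of 4 genes that rose and of Plk1, which did not pass, are shown because they hold the same elements in different layouts. Sequences run 5′ to 3′ on the gene's strand, and capitals mark the CHR letters (TTTGAA, or TTCAAA where they lie on the other strand) and CCAAT boxes (CCAAT, or ATTGG on the other strand).
Cdk1, chr10:69352863-69353162, minus strand: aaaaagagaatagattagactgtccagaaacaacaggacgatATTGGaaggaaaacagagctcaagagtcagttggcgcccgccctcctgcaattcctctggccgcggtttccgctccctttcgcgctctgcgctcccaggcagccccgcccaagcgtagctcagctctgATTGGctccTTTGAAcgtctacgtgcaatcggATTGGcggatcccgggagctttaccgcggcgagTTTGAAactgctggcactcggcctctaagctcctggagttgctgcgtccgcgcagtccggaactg
Ccnb2, chr9:70421505-70421804, minus strand: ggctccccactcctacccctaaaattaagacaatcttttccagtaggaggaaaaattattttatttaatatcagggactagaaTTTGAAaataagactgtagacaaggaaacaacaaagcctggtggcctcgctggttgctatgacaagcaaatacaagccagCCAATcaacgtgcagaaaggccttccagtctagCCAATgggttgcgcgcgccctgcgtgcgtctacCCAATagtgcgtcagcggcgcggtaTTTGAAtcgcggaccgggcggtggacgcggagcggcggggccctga
Cdc20, chr4:118437294-118437593, minus strand: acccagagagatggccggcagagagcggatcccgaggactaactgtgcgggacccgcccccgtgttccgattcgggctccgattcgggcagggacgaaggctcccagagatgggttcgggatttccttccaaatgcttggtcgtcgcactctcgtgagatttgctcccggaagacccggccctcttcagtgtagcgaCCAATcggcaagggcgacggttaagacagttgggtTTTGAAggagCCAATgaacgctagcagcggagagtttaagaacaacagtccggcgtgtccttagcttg
Top2a, chr11:99024140-99024439, minus strand: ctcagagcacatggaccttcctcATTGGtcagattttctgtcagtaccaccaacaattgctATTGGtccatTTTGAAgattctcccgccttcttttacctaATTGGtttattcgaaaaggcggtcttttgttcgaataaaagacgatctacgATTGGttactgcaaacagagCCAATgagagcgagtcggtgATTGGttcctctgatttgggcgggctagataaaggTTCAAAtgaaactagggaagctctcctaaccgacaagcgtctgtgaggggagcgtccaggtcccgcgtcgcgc
Plk1, chr7:122159185-122159484, plus strand: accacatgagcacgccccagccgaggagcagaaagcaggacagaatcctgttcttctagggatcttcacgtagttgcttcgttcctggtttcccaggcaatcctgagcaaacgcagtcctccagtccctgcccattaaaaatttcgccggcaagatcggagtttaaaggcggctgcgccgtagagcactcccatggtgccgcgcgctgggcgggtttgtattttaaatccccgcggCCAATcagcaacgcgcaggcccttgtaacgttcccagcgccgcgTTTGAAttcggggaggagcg
In Cdk1 the nearest CHR letters begin 15 bases before the start and complete the tandem with the gcgg that precedes them, and CCAAT boxes on the other strand begin 48, 80 and 208 bases before it. Ccnb2 has 3 CCAAT boxes, at 87, 54 and 21 bases before the start, and CHR letters that begin 4 bases after it. In Cdc20 the CHR letters, 18 bases before the start, lie between CCAAT boxes at 53 and 8 bases before it. Top2a has 6 CCAAT boxes and CHR letters on the other strand 23 bases before the start. Plk1 holds 1 CCAAT box at 14 bases before and CHR letters 30 bases after the start.

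Mitotic kinases were spread from no measured difference to the upper end of the range, and 1 of 8 rose, against 5.17% of all genes. Melk, a kinase of the AMPK family that peaks in mitosis, had 3026 and 3282 in the null pools, against 1894 and 1783 in the wild-type pools (log2 ratio 0.76 ± 0.17, limma adjusted p = 0.00973). Its null and wild-type arrays were well apart in both sets. Bub1, the checkpoint kinase of the kinetochore, had an equal ratio but a wider error, with 1629 and 1728 in the null pools, against 890.3 and 1054 in the wild-type pools (0.77 ± 0.23, adjusted p = 0.06). Ttk (Mps1), which starts the spindle checkpoint, had 1499 and 1342 in the null pools, against 925 and 923 in the wild-type pools (0.60 ± 0.24, adjusted p = 0.174). For Bub1 and Ttk too both null arrays lay above both wild-type arrays, yet neither passed. Bub1b, the BubR1 protein of the checkpoint complex, had 1838 and 2669 in the null pools, against 1574 and 1701 in the wild-type pools on its leading probe set (0.43 ± 0.19, adjusted p = 0.225). A second Bub1b probe set, 1447363_s_at, had 1627 and 2137 in the null pools, against 1002 and 987 in the wild-type pools and passed (0.88 ± 0.23, adjusted p = 0.0294). So for Bub1b the call depends on the probe set, and the direction does not. The Aurora kinases did not pass. Aurkb, of the chromosomal passenger complex, had 1834 and 2859 in the null pools, against 1335 and 2151 in the wild-type pools (0.42 ± 0.18), so on this probe set the null pool was above its wild-type partner in either set but the groups overlapped, while 1451246_s_at had 0.43 in set 1 and -0.29 in set 2 (0.07 ± 0.23). Aurka, of the spindle pole, had a ratio of 0.20 ± 0.16, nearly all of it from set 2 (0.02 in set 1 and 0.39 in set 2).

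Plk1 and Nek2 are the kinases with no measured difference. Plk1, the polo-like kinase that acts from entry to cytokinesis, had 2407 and 2122 in the null pools, against 2326 and 2048 in the wild-type pools, a log2 ratio of 0.05 ± 0.17 with 0.05 in set 1 and 0.05 in set 2. Nek2, which parts the centrosomes, had 1778 and 2312 in the null pools, against 1714 and 2656 in the wild-type pools (-0.07 ± 0.18), while its second tested probe set had 0.42 ± 0.24. A standard error of 0.17 or 0.18 leaves room for ratios of the size seen in Aurka, so these values do not show that Plk1 or Nek2 were equal between genotypes.

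Genes of the spindle checkpoint and of anaphase held the call with the lowest adjusted p among the leading probe sets. Of 5 genes 3 rose, against 5.17% of all genes. Cdc20, the APC/C activator that the checkpoint holds back, had 17878 and 24382 in the null pools, against 11226 and 14826 in the wild-type pools (log2 ratio 0.69 ± 0.08, limma adjusted p = 8.89e-05), the same in both sets (0.67 in set 1 and 0.72 in set 2). This leading probe set is of the x_at kind, whose probes may also match other transcripts, but the probe set 1416664_at, which is not of that kind, had 7220.2 and 8909 in the null pools, against 5231 and 6549.7 in the wild-type pools and passed too (0.45 ± 0.10, adjusted p = 0.0124). The third, 1439394_x_at, had 1145 and 1079 in the null pools, against 590.1 and 237 in the wild-type pools, and it entered the test only through its null arrays. Ube2c, the APC/C ubiquitin-conjugating enzyme, had 7764 and 8278 in the null pools, against 5909 and 4779 in the wild-type pools (0.59 ± 0.12, adjusted p = 0.00495). Mad2l1, which encodes the checkpoint protein Mad2, had 4732 and 3756 in the null pools, against 2766 and 2915 in the wild-type pools (0.56 ± 0.14, adjusted p = 0.0274). In Ube2c the difference was larger in set 2 and in Mad2l1 in set 1, and in neither did the groups overlap.

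Securin and separase, which act at the parting of chromatids, did not pass. Pttg1, which encodes securin, had 24441 and 25981 in the null pools, against 20884 and 24627 in the wild-type pools, overlapping groups and a ratio of 0.15 ± 0.08 (limma adjusted p = 0.344), with 0.11 ± 0.11 on its second tested probe set. The standard error of the leading probe set was as small as that of Cdc20, though it is of the s_at kind, whose probes are shared by several transcripts. Espl1, separase, the protease that securin holds back, had 977 and 1604 in the null pools, against 1072 and 1187 in the wild-type pools (0.15 ± 0.25), and the sets disagreed in direction.

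**Figure D2:**
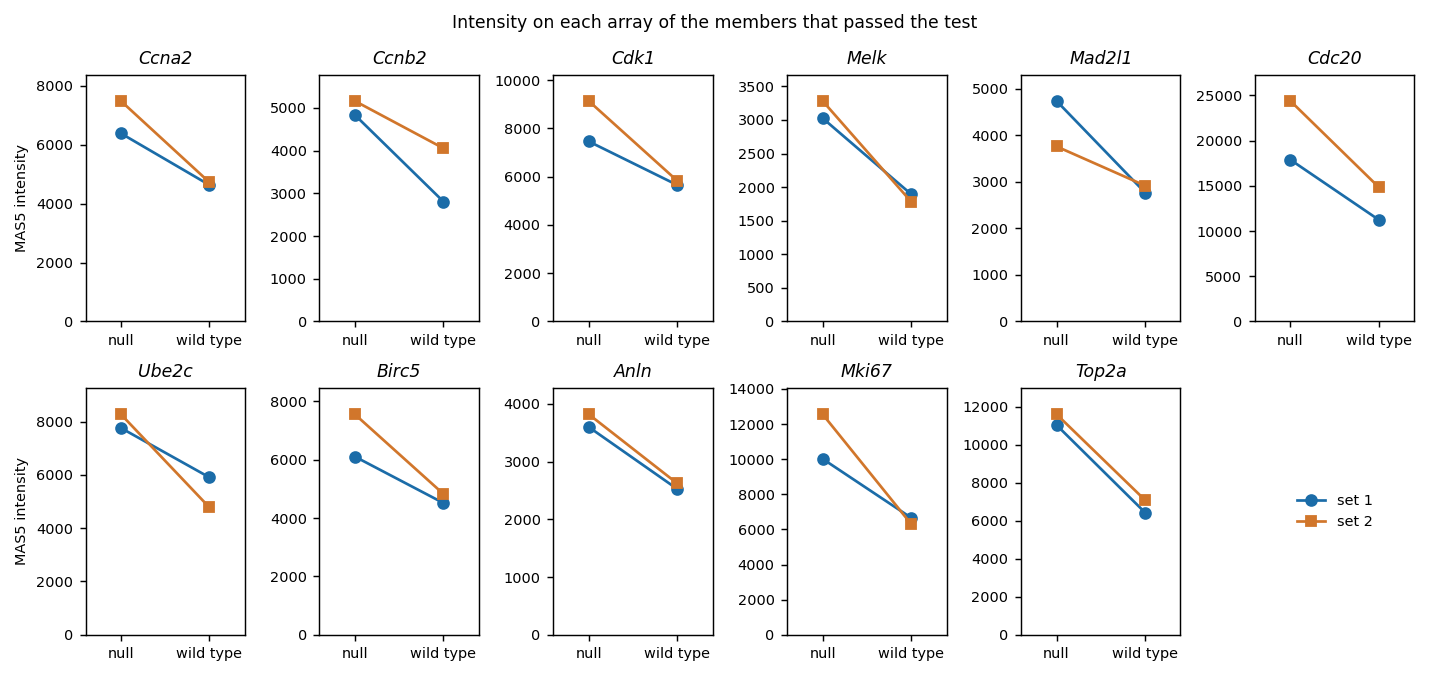
MAS5 intensities (vertical axis, from 0) of the null and wild-type pool of each set are joined by a line for the 11 genes that rose. Both null arrays lie above both wild-type arrays in each of the 11 panels, as they do for 17.6% of all genes. The 11 were picked by the test on these same arrays, so this is a description.

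At the centromere and kinetochore 1 of 6 genes rose, against 5.17% of all genes. Birc5, survivin, the passenger protein that targets Aurora B to centromeres, had 6109 and 7559.8 in the null pools, against 4519 and 4829.8 in the wild-type pools (log2 ratio 0.54 ± 0.11, limma adjusted p = 0.00758). Cenpe, a kinetochore motor, had a larger ratio that did not pass, with 1495 and 1699 in the null pools, against 747 and 1098 in the wild-type pools (0.79 ± 0.24, adjusted p = 0.0654). Its second tested probe set had 1515 and 359 in the null pools, against 1113 and 539 in the wild-type pools, a ratio of -0.05 ± 0.32, so the 2 probe sets of Cenpe disagree. Cenpf, a large kinetochore protein of G2 and mitosis, had 1967 and 2219 in the null pools, against 1188 and 1653 in the wild-type pools (0.56 ± 0.20, adjusted p = 0.114). Nuf2, of the NDC80 complex that binds microtubules, had 1481 and 1487 in the null pools, against 1300.2 and 1062 in the wild-type pools (0.33 ± 0.23). Cenpa, the centromeric histone H3 variant, had a ratio of 0.27 ± 0.14. On the leading probe sets of Birc5, Cenpe, Cenpf, Nuf2 and Cenpa both null arrays lay above both wild-type arrays. This held for 17.6% of all genes. Ndc80, the partner of Nuf2 in the same complex, had 520.0 and 1275 in the null pools, against 842 and 1121 in the wild-type pools, with -0.65 in set 1 and 0.18 in set 2. It had the lowest ratio of the 39 genes (-0.24 ± 0.30, adjusted p = 0.723), and this rests on set 1, where the null array read under 565.

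Of the 7 spindle motors and microtubule proteins 0 passed on the leading probe set by limma (2 were higher at an unadjusted p under 0.05), and 6 were higher in both sets. Of all genes 5.17% rose, and 31.6% were higher in both sets. Kif20a, a kinesin of the central spindle, had 982 and 765 in the null pools, against 721 and 390.4 in the wild-type pools. Its log2 ratio was 0.66 ± 0.32 (limma adjusted p = 0.26). Kif20a, counted among the 6, entered the test only through its null arrays, and its wild-type array of set 2 read under 565. Prc1, which bundles antiparallel microtubules, had 3297 and 3504 in the null pools, against 1575 and 3269 in the wild-type pools on its leading probe set (0.57 ± 0.20, adjusted p = 0.0983), with 1.05 in set 1 and 0.10 in set 2. Its second probe set, 1423774_a_at, had 2631 and 3864 in the null pools, against 1775 and 2501 in the wild-type pools and passed at nearly the same ratio (0.59 ± 0.16, adjusted p = 0.0337). For Prc1 the probe sets agree on the size and differ in how even the 2 sets are.

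Kif11 (Eg5), the motor that pushes the spindle poles apart, had 1479.7 and 1341 in the null pools, against 1108 and 886 in the wild-type pools (0.49 ± 0.24, limma adjusted p = 0.27) on its leading probe set. Another Kif11 probe set, 1452315_at, had 1279 and 1055 in the null pools, against 479 and 491 in the wild-type pools and passed (adjusted p = 0.0253). Both wild-type arrays of that probe set lay under 565, which makes it at least 2.06-fold higher against that level, and it entered the test only through its null arrays. The third, 1452314_at, did not pass (0.30 ± 0.25, adjusted p = 0.55). Tpx2, the activator of Aurora A at the spindle, had 2379.8 and 3659.7 in the null pools, against 2175 and 2238 in the wild-type pools (0.41 ± 0.17), most of it in set 2, and its other tested probe sets had 0.28 ± 0.29 and 0.70 ± 0.34. Kif2c (MCAK), a kinesin that depolymerises microtubules, had 2677 and 2236 in the null pools, against 1845 and 2273 in the wild-type pools (0.25 ± 0.18), with its other tested probe sets at -0.04 ± 0.28 and -0.85 ± 0.37. The third Kif2c probe set, 1454221_a_at, was lower in both sets, at -0.23 in set 1 and -1.47 in set 2, where its null array read 173. It did not pass, and it entered the test only through its wild-type arrays. Kif4 and Kif23, kinesins of chromosomes and of the midzone, had ratios of 0.12 ± 0.24 and 0.08 ± 0.18, smaller than their standard errors.

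Among 3 cytokinesis genes 1 rose, and in all 3 both null arrays lay above both wild-type arrays. Of all genes 5.17% rose, and 17.6% had both null arrays above both wild-type arrays. Anln, anillin, a scaffold of the contractile ring, had 3599 and 3819 in the null pools, against 2525 and 2621 in the wild-type pools (log2 ratio 0.52 ± 0.14, limma adjusted p = 0.039), nearly equal in the 2 sets (0.50 in set 1 and 0.54 in set 2). Ect2, the exchange factor that activates RhoA at the cleavage plane, had 4459.7 and 4123 in the null pools, against 3626 and 2714 in the wild-type pools (0.45 ± 0.14, adjusted p = 0.0646). Racgap1, which recruits Ect2 to the central spindle, had 2898 and 3811 in the null pools, against 2562 and 2705 in the wild-type pools. Its ratio was 0.33 ± 0.15 (limma adjusted p = 0.23). Its second tested probe set had 0.51 ± 0.21, with 0.96 in set 1 and 0.07 in set 2.

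Chromosome proteins held the largest ratio that passed among leading probe sets. Of 5 genes 2 rose, against 5.17% of all genes. Mki67, which encodes the proliferation antigen Ki-67 that coats mitotic chromosomes, had 10016 and 12554 in the null pools, against 6660.4 and 6304 in the wild-type pools (log2 ratio 0.79 ± 0.11, or 1.73-fold, limma adjusted p = 2.90e-04). Top2a, the topoisomerase that untangles sister chromatids, had 11032 and 11599 in the null pools, against 6429 and 7083 in the wild-type pools (0.74 ± 0.09, or 1.67-fold, adjusted p = 1.37e-04). The wild-type arrays of each gene were close to each other and both null arrays stood above them. A dimmer Top2a probe set, 1442454_at, had 0.69 ± 0.34 (limma adjusted p = 0.267), with 0.05 in set 1 and 1.33 in set 2. Its wild-type array of set 2 read 434, under the unspecific level of 565. The condensin genes did not pass. Ncapg, a condensin I subunit, had 1446 and 1485 in the null pools, against 893 and 972 in the wild-type pools (0.63 ± 0.24, adjusted p = 0.142). Smc2, the condensin ATPase, had 5306 and 4447 in the null pools, against 4390.2 and 3856 in the wild-type pools (0.24 ± 0.12). Smc4, its partner, had 33805 and 17757 in the null pools, against 23038 and 18045 in the wild-type pools (0.26 ± 0.11), a difference seen in set 1 only (0.55 in set 1 and -0.02 in set 2), while its probe set 1452197_at had 0.25 in set 1 and 0.33 in set 2, and 1427276_at had 0.13 in set 1 and -0.37 in set 2 (-0.12 ± 0.21).

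**Figure D3:**
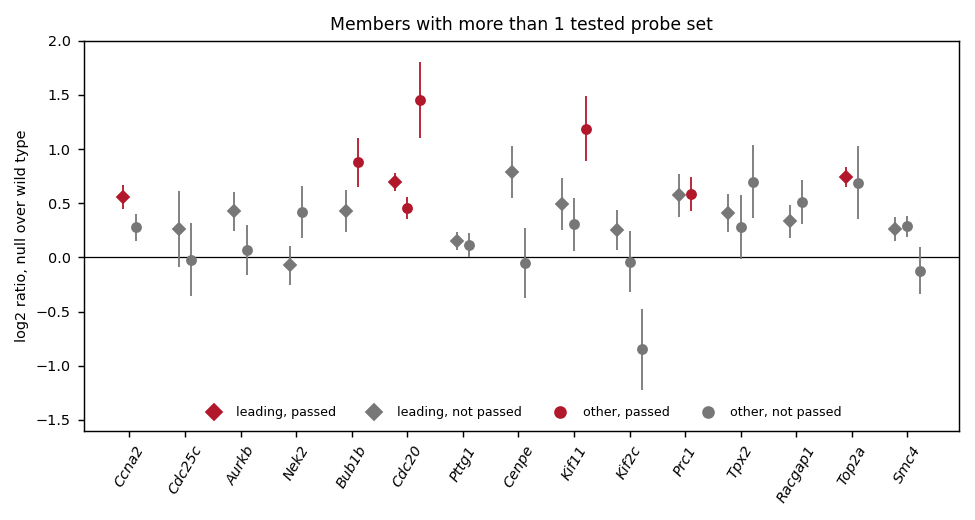
The log2 ratio of null over wild type (vertical axis, bars are limma's standard error) is drawn for every tested probe set of the 15 genes that had more than 1, diamonds for the leading probe set and red for those that passed. In 5 genes the probe sets differ in sign and in 5 they differ in call.

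Across all 59 tested probe sets 16 rose and 0 fell, against 4.09% higher and 3.27% lower among all 22519. They belong to 14 genes, the 11 above and Bub1b, Kif11 and Prc1, whose leading probe sets did not pass. The filter used the mean of all 4 arrays, and 5 tested probe sets had a wild-type mean below its level: 1439394_x_at of Cdc20 and 1452315_at of Kif11, which passed, 1447518_at of Tpx2, and the leading ones of Cdc25c and Kif20a. Without these, 14 probe sets of 13 genes rose, and the 5 left out hold none of the 11 leading probe sets that passed. Probe sets differed in sign within Cdc25c, Nek2, Cenpe, Kif2c and Smc4, and in call within Ccna2, Bub1b, Kif11, Prc1 and Top2a. Ccna2 passed on its leading probe set, and its other had 0.28 ± 0.12 (limma adjusted p = 0.219). A further 26 probe sets of these genes were below the filter, and 20 of them read under 565 on all 4 arrays.

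Genes that rose had smaller limma standard errors than most others, and a small error is part of what lets a gene pass. These errors follow mostly the intensity and are no measure of how well the 2 sets agreed. Plk1, with 0.05 in set 1 and 0.05 in set 2, had an error of 0.17. Smc4, with 0.55 in set 1 and -0.02 in set 2, had an error of 0.11. They were also brighter, with a median intensity of 5808 against 1983 for the other genes. The standard errors of the 11 genes that rose ran from 0.08 to 0.17 with a median of 0.11, and those of the other 28 from 0.08 to 0.35 with a median of 0.19. Ratios of these 28 genes ran from -0.24 to 0.79 with a median of 0.30, so that Cenpe, Bub1 and Ncapg had ratios above several of the genes that passed. The ratio of Kif20a did too, but it entered the test only through its null arrays. Pttg1 and Smc4 are different, with standard errors of 0.08 and 0.11 and ratios of 0.15 and 0.26.

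The 2 sets gave like medians but not the same order of genes. Null over wild type in 1 set alone was at least 1.5-fold for 13 of the 39 genes in set 1, against 5.59% of all genes, and for 15 in set 2, against 6.79%. Ndc80 alone was at least 1.5-fold lower, in set 1. The ratio was larger in set 1 for 19 genes and in set 2 for 20. Across the 39 genes the ratios of the sets correlated at a Pearson r of 0.27, a description over genes that share the same 4 arrays. The 7 genes with sets on different sides of 0 were Cdc25c, Foxm1, Nek2, Espl1, Ndc80, Kif2c and Smc4. With 1 null and 1 wild-type pool per set, a difference between sets could not be tested. Between the sets themselves, 4 of the 39 genes differed, Foxm1, Aurkb and Cdc20 higher in set 2 and Smc4 lower, against 23.0% of all genes.

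**Figure D4:**
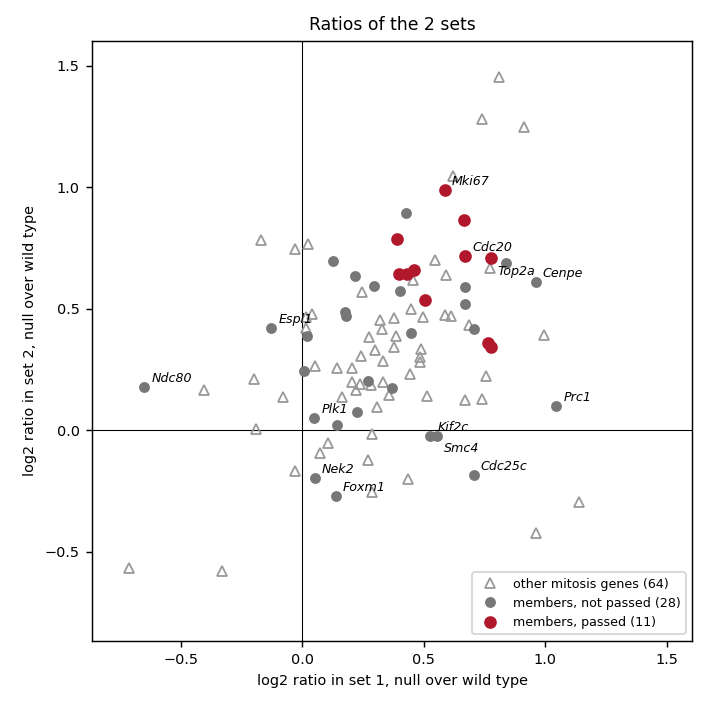
Each point is a gene, with its log2 ratio of null over wild type in set 1 on the horizontal and in set 2 on the vertical axis. The 11 members that passed (red) all lie above 0 on both axes, as do 31.6% of all genes. They were picked by the test on these same arrays. The other 28 members (grey circles) include 7 with opposite signs, and triangles are 64 further mitosis genes.

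A list of 78 other genes of mitosis, with none of the 40 among them, was read beside them. It too was chosen with earlier results of these data known. Of 64 tested 10 rose (15.6%, against 5.17% of all genes) and 0 fell, and the median was 0.32. In both sets 47 were higher and 3 lower, where 31.6% of all genes were higher in both and 33.5% lower in both. Cenpk, of the inner kinetochore, had 3099 and 3829 in the null pools, against 1624 and 1588 in the wild-type pools (log2 ratio 1.08 ± 0.17, limma adjusted p = 9.20e-04). Sgo1, shugoshin, a guardian of centromere cohesion, had 1029 and 1435 in the null pools, against 568 and 496 in the wild-type pools and passed (adjusted p = 0.0327), but its wild-type array of set 2 lay under 565 and that of set 1 just above, so the size of its difference is not well measured. Sgo1 is counted among the 10, though its wild-type mean was below the filter and it entered the test only through its null arrays. Pbk, a mitotic kinase, had 9246 and 14684 in the null pools, against 5998 and 7094 in the wild-type pools (0.83 ± 0.11, adjusted p = 1.85e-04). Cenpi did not pass (adjusted p = 0.0643), and with both wild-type arrays under 565 it was at least 1.89-fold higher against that level. Cenpi, Dlgap5 and Stil, counted among the 47, also entered the test only through their null arrays. Kif22, Nusap1, Spag5, Psrc1, Cdca3, Ncapg2 and Kpna2 made up the 10. Knl1, the kinetochore scaffold that recruits Bub1, had 574 and 516 in the null pools, against 969.6 and 784 in the wild-type pools. It was lower in both sets (-0.64 ± 0.31, limma adjusted p = 0.265) and entered the test only through its wild-type arrays.

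Partner proteins, many of them known to be made throughout the cell cycle, had medians near 0. Of all genes 5.17% rose and 3.54% fell, so in lists this short a count of 0 is near the share of all genes. The core subunits of the APC/C, which Cdc20 and Ube2c serve, had 0 of 14 pass, a median of -0.03 and a range from Anapc13 at -0.15 ± 0.08 to Cdc27 at 0.24 ± 0.11. Cohesin and its loaders and releasers, the ring that separase cuts, had 0 of 9 pass, with a median of 0.06 and a range from Stag1 at -0.12 ± 0.10 to Smc3 at 0.22 ± 0.14. Subunits of DREAM, MuvB and NF-Y, which bind the promoter elements above, had 0 of 11 pass, with a median of -0.04 and a range from Nfyb at -0.31 ± 0.14 and Lin9 at -0.29 ± 0.23 to Rbbp4 at 0.19 ± 0.08 and Rbl1 at 0.32 ± 0.16. Of S phase genes 6 of 21 rose and 0 fell, where 5.17% of all genes rose, with a median of 0.36 against 0.45 for the mitosis and spindle genes. Among the 6 were Rrm2 of ribonucleotide reductase, with 14406 and 16743 in the null pools, against 8353 and 9421 in the wild-type pools (0.80 ± 0.09), Tk1 (0.78 ± 0.15), Mcm3 (0.58 ± 0.14) and Mcm5 (0.52 ± 0.10), while Cdc6, which loads the MCM helicase, had 0.97 ± 0.29 and did not pass (limma adjusted p = 0.0533).

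Markers of cell types moved beside the mitosis genes, and their counts stand against the 5.17% of all genes that rose. Fibroblast markers rose in 8 of 8 genes with a median of 1.19 and summed intensities of 319263 and 368125 in the null pools, against 153392 and 158111 in the wild-type pools. Adipocyte markers rose in 4 of 5, with a median of 1.41 and sums of 60610.1 and 53436 in the null pools, against 24686 and 21745 in the wild-type pools. Both lists moved further than the mitosis and spindle genes, whose sums were 195279 and 199163 in the null pools, against 142033 and 149122 in the wild-type pools. Epithelial markers rose in 1 of 8, Krt19 (0.37 ± 0.08). Of the 8 markers, 5 were higher in the null pool in both sets, where 31.6% of all genes were higher in both and 33.5% lower in both. The others of these 5, Krt8 (0.30 ± 0.10), Krt18 (0.21 ± 0.10), Krt7 (0.20 ± 0.09) and Cldn7 (0.23 ± 0.08), did not pass. Epcam (-0.18 ± 0.08), Cdh1 (-0.08 ± 0.08) and Cldn3 (-0.14 ± 0.08) were lower in the null pool in both sets and did not pass. The list had a median of 0.20 and sums of 491739 and 501441 in the null pools, against 466471 and 428667 in the wild-type pools. Macrophage markers rose in 3 of 8, with a median of 0.15 and sums of 125112 and 133373 in the null pools, against 105729 and 116068 in the wild-type pools. Endothelial markers rose in 1 of 6, with a median of 0.49 and sums of 8809 and 9603 in the null pools, against 6209.8 and 6895 in the wild-type pools. Of 8 lymphocyte markers with a probe set only Cd8a and Nkg7 were bright enough to test, and neither passed (1.01 ± 0.31 and 0.64 ± 0.31). The part of these cell types in the mitosis values was not tested. The part of RNA quality, given by the 3'/5' ratios above, was not tested either.

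**Figure D5:**
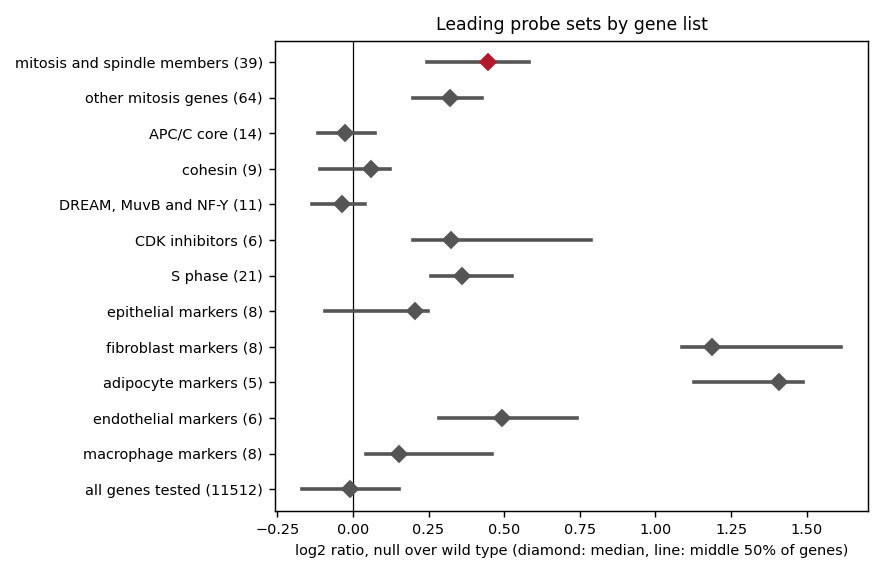
For each list the diamond is the median log2 ratio of null over wild type and the line spans the middle 50% of its tested genes, with their number in brackets. The mitosis and spindle genes (red) centre on 0.45, below the fibroblast and adipocyte markers, and the APC/C core, cohesin and DREAM lists centre near 0.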

How the data were processed

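Gene expression was measured on 4 Affymetrix arrays, 2 of null and 2 of wild-type tumor pools. Per the labels' protocols, 100 mg of tumor was homogenized and 6 ug of total RNA was labelled. The deposited values are linear intensities made with MAS5, per the submitters' processing notes, with no version given in the sources used here. The trimmed mean (2% at each end) was 2500.01 on every array, so no further scaling was applied. Of 45101 probe sets 64 controls were left out. The probe annotation gave 1 symbol for 34945 of the remaining 45037, several for 932 and none for 9160. All 4 columns were mapped to samples.

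Intensities were turned into log2(value + 44), 44 being their 10th percentile, which understates changes of dim genes. Probe sets at or above the median were tested, 22519 in all, with limma 3.58.1 (lmFit, eBayes with an intensity trend) in R 4.3.3. The set is a block because the design text pairs the pools. Pools of 1 set deviated together from their group means, with a correlation of 0.61, a single value since each genotype has 2 pools. The fit has 1 residual and 13.5 prior degrees of freedom. The fit was tested on simulated arrays with independent errors and far fewer changed probe sets than were called in the data. There it recovered small changes less often than large ones. The share of unchanged probe sets among its calls there was above the threshold of 0.05. Precision is limited by there being 4 arrays.

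The members and lists were chosen with earlier results of these data known. Each gene is given by its brightest tested probe set. Named genes are the 40 members, with values for up to 5 per role of the largest ratio and for those whose probe sets disagree, and up to 4 genes per further list; values of other members and genes were added after they were seen. Alternatives were 2 further normalizations (quantile, cyclic loess), a filter at the 75th percentile or none, pseudocounts of 16 and 200, no set term, no trend, each array left out, the mean over probe sets, and each set alone. Promoter windows come from RefSeq, GRCm38.p6, and were matched by symbol.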

Additional observations from a re-analysis of the deposited data

How the results depend on the processing

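Under quantile and cyclic loess normalization, other pseudocounts and no filter, limma called between 11 and 12 of the 39 mitosis and spindle genes higher and 0 lower. The 12th, Bub1, passed under quantile normalization (adjusted p = 0.049). With the filter at the 75th percentile 18 genes were tested and 10 rose, and their median log2 ratio moved to 0.53, over fewer genes. No replicate block (no set term) left 0 members and 0 other mitosis genes called, with 13 and 8 higher at an unadjusted p under 0.05, and no intensity trend left 0 and 0, with 20 and 22. Leaving out any 1 of the 4 arrays, which also drops the set term, left 0 calls in both lists (4 to 8 members and 2 to 7 other genes higher at an unadjusted p under 0.05), with member medians between 0.39 and 0.52. Signs changed there in genes that had not passed: Cdc25c ran from -0.068 to 0.59, Foxm1 from -0.55 to 0.42, Plk1 from -0.041 to 0.14, Nek2 from -0.38 to 0.24, Ndc80 from -0.85 to 0.38, Kif23 from -0.098 to 0.27, Smc4 from -0.20 to 0.73, Espl1 from -0.20 to 0.49 and Kif4 from -0.0053 to 0.25. As a mean over tested probe sets, Nek2 was at 0.17 and Kif2c at -0.21. These means were not tested themselves, and 9 members had most of their tested probe sets pass singly. At 1.5-fold in set 1 alone, 1 member was lower. Each of the 11 genes kept a positive ratio under every alternative in which it was tested. The causes of these differences between settings were not tested.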

Other observations

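Inhibitors of cyclin-dependent kinases, proteins that hold cells out of the cycle, were measured beside the genes that drive it. Of 6 tested by limma, 2 rose and 0 fell, where 5.17% of all genes rose. Cdkn2b, which encodes p15INK4b, had 3435 and 4477 in the null pools, against 1926 and 2165 in the wild-type pools (log2 ratio 0.93 ± 0.15, adjusted p = 0.00126). Both null arrays lay well above both wild-type arrays. Cdkn1a, which encodes p21, had 6393 and 8320.4 in the null pools, against 5286 and 5990.2 in the wild-type pools (0.37 ± 0.11, limma adjusted p = 0.0483), close to the threshold. Cdkn1c, an imprinted gene that encodes p57, had 1331 and 1381 in the null pools, against 1090.5 and 351 in the wild-type pools (1.06 ± 0.34, limma adjusted p = 0.0769), with the wild-type array of set 2 under the unspecific level. Cdkn1b, which encodes p27, went the other way in both sets, with 6922 and 6465 in the null pools, against 8735 and 7819 in the wild-type pools (-0.30 ± 0.10, limma adjusted p = 0.083), and did not pass.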
